A study of Mus musculus with 12 samples.

Results

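The SMAD family is the set of intracellular proteins that carry signals from the receptors for bone morphogenetic proteins (BMPs), activins and TGF-beta to the nucleus. Its members were chosen by name, through the Ensembl gene identifiers of Smad1 to Smad7 and Smad9, and all 8 were found among the 54532 genes of each count table. The members were compared in 12 RNAseq samples of mouse brainstem progenitors, 3 in each of 4 groups. All groups came from Nestin-TVA, p53 floxed pups on a C57BL/6 background, taken at postnatal days 3 to 5 by the labels and at day 3 by the methods of the study, and all were grown without serum in EGF and FGF2. The cells were infected with RCAS vectors for ACVR1, either WT or R206H, and each allele was given alone or together with a vector for H3.1K27M. RCAS is an avian retrovirus that enters only cells with its receptor, TVA, which the Nestin promoter drives here. The reference group therefore also carried an ACVR1 vector, no Cre vector is listed for any group, and the labels do not say whether the 3 replicates of a group came from separate litters or cultures, so that p values measure only the spread between these samples.

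ACVR1, also called ALK2, is a type I receptor for BMPs and activins, and R206H is an activating change in it that occurs in diffuse intrinsic pontine glioma together with the histone change H3.1K27M. A type I receptor phosphorylates the receptor SMADs at the end of the protein. Smad1, Smad5 and Smad9 (also called Smad8) serve the BMP receptors and Smad2 and Smad3 those for activin and TGF-beta. The phosphorylated protein joins the common member, Smad4, and the complex enters the nucleus and regulates genes, among them those of the inhibitory members Smad6 and Smad7, which act back on the receptors. RNAseq counts transcripts and does not see this phosphorylation.

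The receptors phosphorylate serines at the very end of a receptor SMAD, and the ends of 5 coding sequences are shown because this is where the receptor SMADs and an inhibitory SMAD part. Each line gives the last 10 codons and the stop codon from the GENCODE M21 transcripts, 5′ to 3′, and capitals mark the serine codons among the last 4 codons.
Smad1: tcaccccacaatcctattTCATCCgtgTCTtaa
Smad5: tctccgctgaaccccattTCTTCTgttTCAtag
Smad9: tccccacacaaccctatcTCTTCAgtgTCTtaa
Smad3: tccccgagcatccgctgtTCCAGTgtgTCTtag
Smad6: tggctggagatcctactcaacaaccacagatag
The 4 receptor SMADs each had 3 serine codons in their last 4 codons, and Smad6 had 0.

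Smad9 and Smad6 had the largest fold changes of the family between R206H and WT with H3.1K27M, and the 250 bases before their starts are shown for that reason, from RefSeq on GRCm38.p6 and on the strand of the gene. Capitals mark GGCGCC, the core of a GC-rich element that BMP SMADs bind, and GTCT on either strand (as GTCT or AGAC), a short element that Smad3 and Smad4 bind. The Smad9 sequence is chr3:54755332-54755581 (plus strand) and the Smad6 sequence chr9:64022060-64022309 (minus strand).
Smad9: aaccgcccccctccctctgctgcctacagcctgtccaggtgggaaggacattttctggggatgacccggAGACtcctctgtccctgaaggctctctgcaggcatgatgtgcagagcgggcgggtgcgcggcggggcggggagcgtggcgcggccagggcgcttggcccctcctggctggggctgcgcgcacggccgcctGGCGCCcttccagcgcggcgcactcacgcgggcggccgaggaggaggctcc
Smad6: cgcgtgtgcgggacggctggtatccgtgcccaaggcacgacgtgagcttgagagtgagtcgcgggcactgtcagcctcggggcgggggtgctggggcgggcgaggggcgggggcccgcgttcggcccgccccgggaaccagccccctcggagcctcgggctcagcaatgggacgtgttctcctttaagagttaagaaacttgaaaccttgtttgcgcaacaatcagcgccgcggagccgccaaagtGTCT
The window of Smad9 held 1 GGCGCC and 1 GTCT, and that of Smad6 held 0 GGCGCC and 1 GTCT. Of 32851 windows of the same length before the starts of RefSeq genes, 9.59% held GGCGCC and 82.9% held GTCT on either strand, so that a GTCT is the rule. A match is a description of the letters and not evidence of binding.

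The libraries held between 19315020 and 26456257 counts, and values below are in CPM, a gene's count relative to the total of its library after TMM scaling, unless another scale is named. The ACVR1 WT group was the most uneven, with a biological coefficient of variation of 0.275 against 0.0453 to 0.0594 in the other groups, and its replicate 1 stood apart. Summed astrocyte markers ran from 2329 to 10346 CPM within that group, from 4281 to 5128 CPM in R206H, from 2471 to 2635 CPM in WT with H3.1K27M and from 3187 to 3252 CPM in R206H with H3.1K27M. The ependymal and microglial sums split by H3.1K27M with no overlap, as Smad1 to Smad5 did, although not every marker in them split. Ependymal markers summed to 31.4 to 56.8 CPM (WT) and 41.6 to 45.2 CPM (R206H) without H3.1K27M, and to 67.8 to 71.1 and 75.3 to 82.6 CPM with it. Microglial markers summed to 2.94 to 11.9 and 3.75 to 5.33 CPM without H3.1K27M, and to 1.10 to 1.54 and 1.98 to 2.92 CPM with it. Foxj1 made up most of the ependymal sum, at means of 38.5 (WT) and 40.7 CPM (R206H) without H3.1K27M and 65.9 and 75.6 CPM with it. Rsph1, at 1.93, 2.28, 1.71 and 1.94 CPM in the same order, did not split. P2ry12 of the microglial list did not split either, at 1.15, 1.06, 1.06 and 2.12 CPM. The oligodendrocyte lineage and neuronal sums, at 1059 to 1513 CPM and 26.6 to 157 CPM, did not split by H3.1K27M. They did split between the alleles with H3.1K27M, as given below. Progenitor markers (Nes, Sox2, Sox9, Vim, Fabp7 and Msi1) were present in all groups, at 4039 to 5846 CPM summed. Of the 6 endothelial markers, Pecam1, Cdh5, Cldn5, Tek and Emcn were under 1 CPM in every sample, while the sum of all 6 ran from 1.12 to 1.99 CPM in ACVR1 WT, 1.40 to 1.85 CPM in R206H, 1.90 to 2.65 CPM in WT with H3.1K27M and 3.43 to 5.50 CPM in R206H with H3.1K27M. The summed markers of pericytes and fibroblasts ran from 8.85 to 12.1 CPM in ACVR1 WT, 12.01 to 14.95 CPM in R206H, 13.7 to 16.7 CPM in WT with H3.1K27M and 23.1 to 28.5 CPM in R206H with H3.1K27M, with Dcn and Lum under 1 CPM in every sample. Every sum given here split without overlap between R206H and WT with H3.1K27M, the comparison in which Smad6, Smad7 and Smad9 were called higher. The oligodendrocyte lineage sum was lower in R206H with H3.1K27M, at 1144 to 1247 against 1396 to 1513 CPM. All others were higher. Progenitor markers summed to 5515 to 5846 against 4795 to 5237 CPM, and neuronal markers to 43.8 to 45.9 against 37.6 to 41.2 CPM. Rgs5 carried most of the pericyte and fibroblast rise, from a mean of 8.92 to 19.1 CPM, while Col3a1 went from 2.30 to 1.80 CPM. Kdr carried most of the endothelial rise, from 1.20 to 2.67 CPM. The part of these marker differences in the results on the SMAD genes was not tested. In bulk RNA, fewer cells of a type and less RNA per cell cannot be told apart.

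Reads counted on Acvr1, which may include reads from the human ACVR1 vector, were more frequent in each group than in the one before it below. They were at 53.5, 46.4 and 52.7 CPM in ACVR1 WT, 113.6, 81.9 and 85.8 CPM in ACVR1 R206H, 169.9, 162 and 364 CPM in ACVR1 WT with H3.1K27M, and 999, 561 and 1057 CPM in ACVR1 R206H with H3.1K27M (replicates 1 to 3). The groups did not overlap. Between R206H and WT with H3.1K27M the difference was 1.91 on the log2 scale (SE 0.28, adjusted p = 0.00045, edgeR). These 2 groups thus differed in the amount of Acvr1 reads as well as in the allele. Between groups with and without H3.1K27M it was 2.20 with WT (SE 0.33, adjusted p = 0.00745, edgeR) and 3.23 with R206H (SE 0.21, adjusted p = 1.27e-07, edgeR). In those comparisons H3.1K27M and the amount of Acvr1 reads cannot be told apart. How much of the Acvr1 reads is vector was not tested.

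Compared per kilobase of exon, the family was dominated by a few members. In ACVR1 WT, Smad4 stood at 30.5 ± 1.1 CPM per kilobase (SD, n = 3) and Smad5 at 28.7 ± 3.6, and these overlapped. Smad3 (13.0 ± 2.6) and Smad1 (11.3 ± 0.86) followed and also overlapped. Smad2 stood lower, at 5.51 ± 0.32 CPM per kilobase. Smad9 (1.57 ± 0.68) and Smad7 (1.03 ± 0.20) overlapped, and Smad6 was lowest at 0.234 ± 0.093. The order by exon length was the same in all 4 groups, with Smad4 and Smad5 overlapping in each. By coding length instead, Smad5 came first in every group, at 153 CPM per coding kilobase against 68.6 for Smad4 in ACVR1 WT. Of the 7420 exon bases of Smad5, 1395 are coding.

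The sum of the 8 members moved little between groups, from 91.9 ± 3.8 CPM per kilobase in ACVR1 WT to 95.5 ± 2.6 in R206H, 86.7 ± 0.64 in WT with H3.1K27M and 91.0 ± 1.3 in R206H with H3.1K27M. Its composition differed more. The BMP receptor SMADs made up 45.2 ± 0.56% of the sum in ACVR1 WT and 45.0 ± 1.1% in R206H, against 39.2 ± 0.40% and 40.7 ± 0.59% in the same alleles with H3.1K27M. The activin receptor SMADs went the other way, at 20.1 ± 2.2% and 21.3 ± 0.58% without H3.1K27M and 31.0 ± 0.64% and 28.9 ± 0.31% with it. The inhibitory SMADs were between 1.38 ± 0.18% and 1.82 ± 0.17% in the first 3 groups and 4.42 ± 0.34% in R206H with H3.1K27M. Such shares depend on each other, and were given no test.

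**Figure D1:**
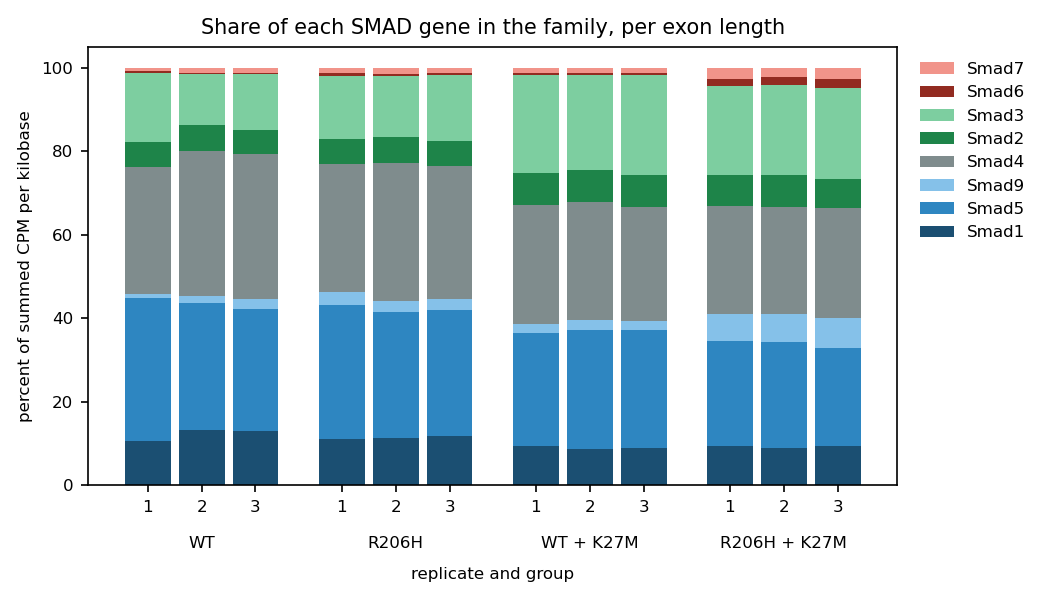
Stacked bars give each member's share, in percent, of the summed CPM per kilobase of exon of the 8 SMAD genes, with 1 bar for each of the 12 samples in 4 groups (K27M stands for H3.1K27M). The share of Smad9 stood at 6.54 to 7.16% in R206H with H3.1K27M and at 0.955 to 2.98% elsewhere, and that of Smad3 was at 21.2 to 24.0% with H3.1K27M and 12.2 to 16.5% without it.

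Within the BMP receptor SMADs, Smad9 had its largest share in R206H with H3.1K27M. It made up 3.83 ± 1.8% of the sum of Smad1, Smad5 and Smad9 in ACVR1 WT, 6.05 ± 0.35% in R206H, 5.66 ± 0.13% in WT with H3.1K27M and 16.7 ± 1.0% in R206H with H3.1K27M. Smad5 remained the largest of them in all samples, at 58.9 to 74.5% of that sum.

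Smad9, the least abundant of the BMP receptor SMADs, lies at chr3:54755582-54801257 (plus strand, mm10). It was at 4.93, 8.20 and 12.2 CPM in the replicates of ACVR1 WT and at 15.7, 13.2 and 13.1 CPM in those of R206H. With H3.1K27M, it was at 10.4, 10.3 and 10.3 CPM with ACVR1 WT and at 31.4, 33.4 and 35.1 CPM with R206H. The 3 samples of R206H with H3.1K27M were thus the highest of the 12, the 3 samples of R206H came next, and the ACVR1 WT replicates ran from below to above those of WT with H3.1K27M. With H3.1K27M, R206H raised Smad9 3.24-fold over WT (log2 fold change 1.70, 95% interval 1.55 to 1.84, adjusted p = 1.2e-08 by edgeR). Without H3.1K27M the value was 0.74 (interval -0.02 to 1.50, unadjusted p = 0.0543, adjusted p = 0.940, edgeR), although the groups did not overlap. H3.1K27M raised Smad9 with R206H by 1.26 (interval 1.09 to 1.44, adjusted p = 1.19e-07, edgeR), and with WT the value was 0.30 (interval -0.43 to 1.04, adjusted p = 0.513, edgeR). That last value was 0.029 without replicate 1 of ACVR1 WT and 0.67 without its replicate 3.

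Smad6, an inhibitory SMAD that acts mainly on the BMP side, lies at chr9:63953076-64022059 (minus strand). It had the fewest reads of the family: 23, 12 and 11 counts in ACVR1 WT, 35, 32 and 18 in R206H, 33, 30 and 33 in WT with H3.1K27M and 109, 122 and 159 in R206H with H3.1K27M. These counts gave 1.09, 0.622 and 0.538 CPM, then 1.75, 1.65 and 0.872 CPM, 1.35, 1.43 and 1.31 CPM, and 5.17, 5.36 and 5.94 CPM. The samples of R206H with H3.1K27M stood above all others, while R206H overlapped both ACVR1 WT and WT with H3.1K27M. R206H raised Smad6 4.06-fold with H3.1K27M (log2 fold change 2.02, 95% interval 1.69 to 2.35, adjusted p = 1.84e-06, edgeR). Without H3.1K27M the value was 0.92 (interval -0.03 to 1.88, unadjusted p = 0.0563, adjusted p = 0.940, edgeR). H3.1K27M raised it 3.90-fold with R206H (log2 fold change 1.96, interval 1.51 to 2.42, adjusted p = 7.57e-06, edgeR). With WT, Smad6 was at 0.86 (interval 0.14 to 1.58, adjusted p = 0.0836, edgeR), with groups that did not overlap.

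Smad7, the inhibitory SMAD of both branches, lies at chr18:75367529-75395935 (plus strand). It was at 3.65, 5.34 and 4.94 CPM in ACVR1 WT and 5.85, 6.15 and 5.62 CPM in R206H. With H3.1K27M, it was at 5.07, 4.52 and 4.99 CPM with WT and 10.5, 9.49 and 11.3 CPM with R206H. R206H with H3.1K27M again stood apart, R206H alone lay just above ACVR1 WT without overlap, and both WT groups overlapped. R206H raised Smad7 2.15-fold with H3.1K27M (log2 fold change 1.11, 95% interval 0.88 to 1.34, adjusted p = 1.49e-05, edgeR), against 0.35 without it (interval -0.08 to 0.78, adjusted p = 0.940, edgeR). H3.1K27M raised Smad7 by 0.84 with R206H (interval 0.61 to 1.08, adjusted p = 3.18e-05, edgeR), and with WT the value was 0.08 (interval -0.36 to 0.52, adjusted p = 0.786, edgeR).

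**Figure D2:**
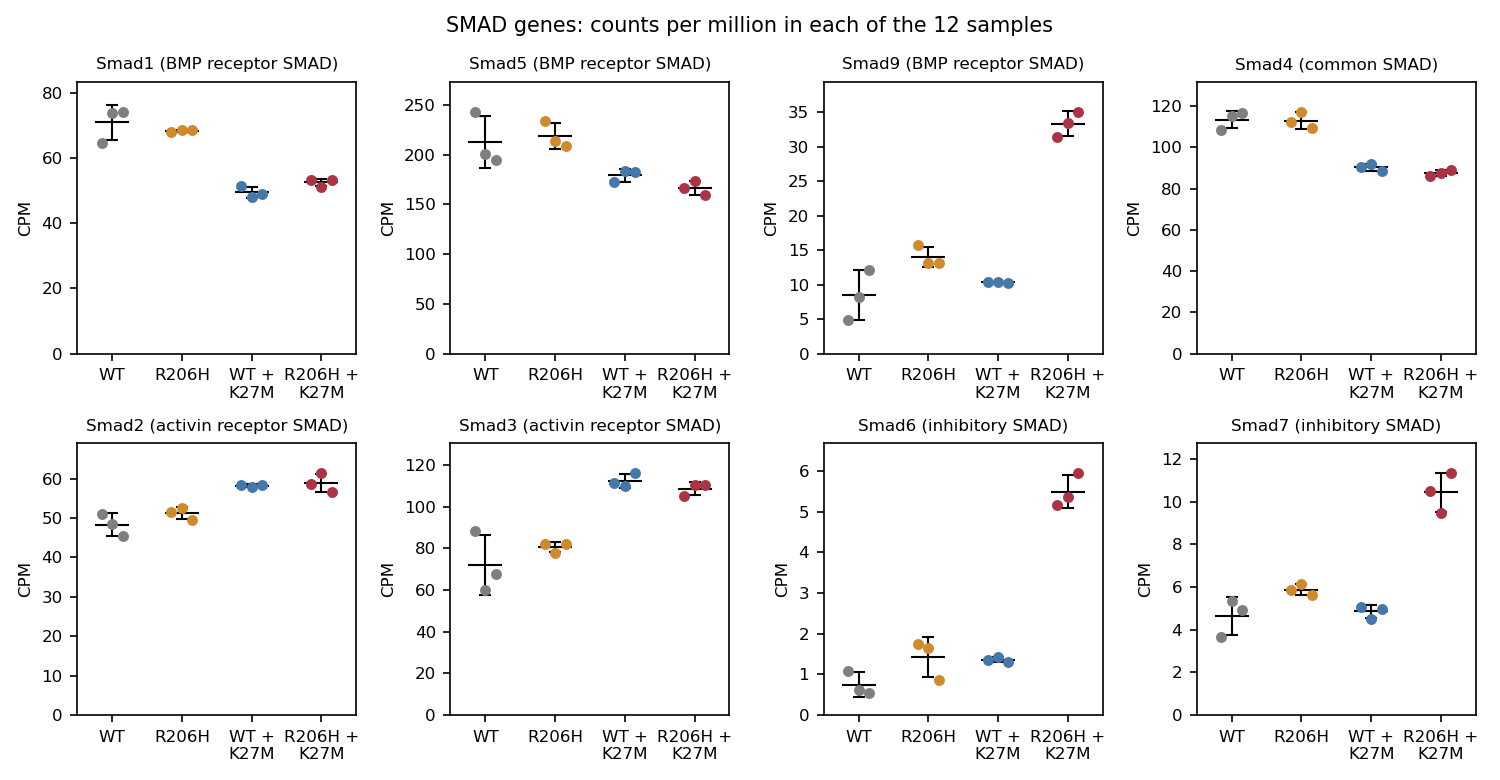
Points give the TMM-scaled CPM of each SMAD gene in the 3 replicates of each group, in order of replicate number, and horizontal lines with bars give the mean and SD; each axis starts at 0. Smad6, Smad7 and Smad9 are highest in R206H with H3.1K27M, at 5.17 to 5.94, 9.49 to 11.3 and 31.4 to 35.1 CPM, while Smad1 and Smad4 are lower, and Smad2 and Smad3 higher, in both groups with H3.1K27M.

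Acvr1 reads and these 3 transcripts were not always ordered alike. In ACVR1 WT with H3.1K27M, replicate 3 had 364 CPM of Acvr1 against 169.9 and 162, and Smad9 at 10.3, Smad7 at 4.99 and Smad6 at 1.31 CPM in it were within or next to the range of the other 2. In R206H with H3.1K27M, replicate 2 had 561 CPM of Acvr1 against 999 and 1057, with Smad9 at 33.4 and Smad6 at 5.36 CPM, both between the other 2 replicates, and Smad7 at 9.49 CPM, the lowest of the 3. WT with H3.1K27M had more Acvr1 reads than R206H without it, and lower Smad9 and Smad7, while Smad6 overlapped between them. These 2 groups also differed in the allele. The part of Acvr1 reads in the levels of these transcripts was not tested.

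**Figure D3:**
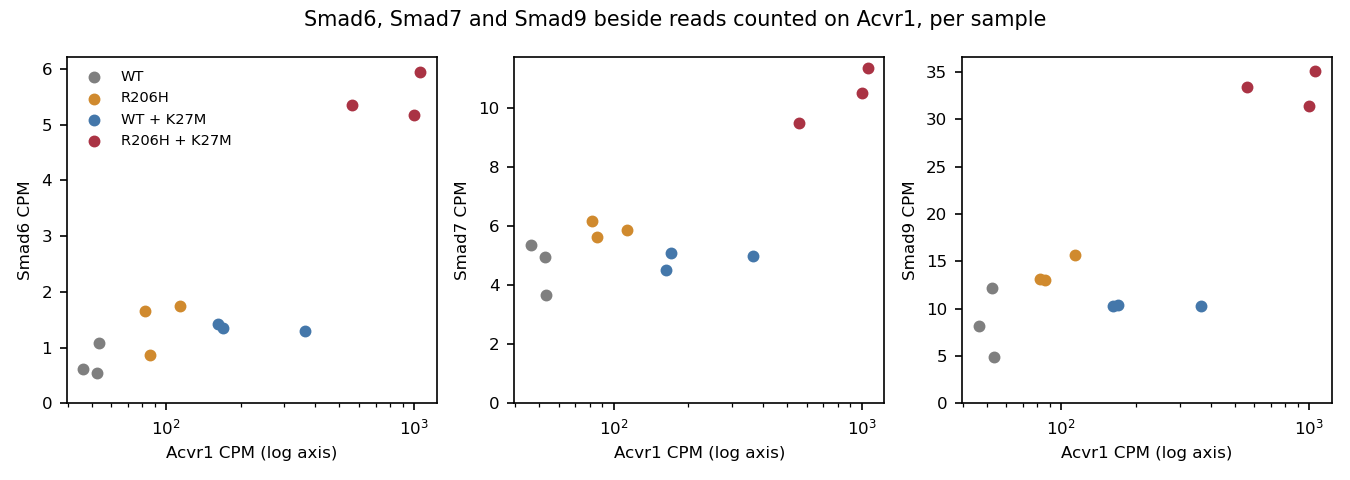
Each point is 1 of the 12 samples, with CPM counted on Acvr1 on a log axis and CPM of Smad6, Smad7 or Smad9 on a linear axis from 0; colours mark the 4 groups. The 3 samples of WT with H3.1K27M, at 162 to 364 CPM of Acvr1, lie below the 3 samples of R206H, at 81.9 to 113.6 CPM, for Smad7 and Smad9. For Smad6 these 2 groups overlap.

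Smad1 and Smad5, the BMP receptor SMADs that carry most of the reads, had lower levels in the groups with H3.1K27M. Smad1 (chr8:79338395-79399518, minus strand) was at 64.6, 73.8 and 74.1 CPM in ACVR1 WT, 67.8, 68.5 and 68.4 CPM in R206H, 51.2, 48.0 and 49.0 CPM in WT with H3.1K27M and 53.1, 51.2 and 53.2 CPM in R206H with H3.1K27M. No sample with H3.1K27M reached the lowest sample without it. Smad1 fell by 0.51 on the log2 scale with WT (SE 0.08, adjusted p = 0.00802, edgeR) and by 0.37 with R206H (SE 0.04, adjusted p = 2.27e-05, edgeR). Between R206H and WT it was at -0.04 without H3.1K27M (interval -0.22 to 0.13) and 0.09 with it (interval -0.01 to 0.20, adjusted p = 0.198, edgeR).

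Smad5 (chr13:56703010-56742377, plus strand) was at 243, 200.5 and 195 CPM in ACVR1 WT, 234, 214 and 209 CPM in R206H, 172, 184 and 182 CPM in WT with H3.1K27M and 166, 174 and 159.7 CPM in R206H with H3.1K27M. The samples with H3.1K27M all lay below those without it. Smad5 fell by 0.38 with R206H (SE 0.05, adjusted p = 5.5e-05, edgeR), and with WT it was at -0.24 (interval -0.48 to 0.01, adjusted p = 0.136, edgeR). Between R206H and WT with H3.1K27M it was at -0.10 (interval -0.19 to -0.01, unadjusted p = 0.0391, adjusted p = 0.129, edgeR). Of its exon bases, 1.35% (100 bases) also belong to the misc_RNA gene Gm27301. The other 7 members share no exon bases with another gene.

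Smad4, the common partner of all receptor SMADs, lies at chr18:73639009-73703780 (minus strand). It was at 109, 115 and 116 CPM in ACVR1 WT, 112, 117 and 109 CPM in R206H, 90.6, 91.8 and 88.4 CPM in WT with H3.1K27M and 86.2, 87.4 and 88.9 CPM in R206H with H3.1K27M. The samples again split by H3.1K27M with no overlap, and overlapped between the ACVR1 alleles. Smad4 fell by 0.32 with WT (SE 0.06, adjusted p = 0.0136, edgeR) and by 0.36 with R206H (SE 0.04, adjusted p = 2.17e-05, edgeR). Between R206H and WT it was at 0.0036 without H3.1K27M (interval -0.14 to 0.15) and -0.04 with it (interval -0.12 to 0.05).

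The activin and TGF-beta receptor SMADs were higher with H3.1K27M. Smad3 (chr9:63646767-63757994, minus strand) was at 88.1, 60.1 and 67.6 CPM in ACVR1 WT, 82.1, 77.7 and 81.9 CPM in R206H, 111, 109.7 and 116 CPM in WT with H3.1K27M and 105, 110.5 and 110.4 CPM in R206H with H3.1K27M. Replicate 1 of ACVR1 WT was the highest of the 6 samples without H3.1K27M, and still below every sample with it. Smad3 rose by 0.65 with WT (SE 0.14, adjusted p = 0.0217, edgeR) and by 0.44 with R206H (SE 0.04, adjusted p = 4.5e-06, edgeR).

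Smad2 (chr18:76241580-76310963, plus strand) was at 51.2, 48.5 and 45.5 CPM in ACVR1 WT, 51.6, 52.5 and 49.5 CPM in R206H, 58.4, 57.9 and 58.5 CPM in WT with H3.1K27M and 58.8, 61.4 and 56.7 CPM in R206H with H3.1K27M. It moved less than Smad3 but split in the same way. Smad2 rose by 0.28 with WT (SE 0.07, adjusted p = 0.0335, edgeR) and by 0.21 with R206H (SE 0.05, adjusted p = 0.0033, edgeR). Between R206H and WT with H3.1K27M, Smad2 was at 0.02 (interval -0.08 to 0.12) and Smad3 at -0.04 (interval -0.13 to 0.05), and neither passed the test without it.

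**Figure D4:**
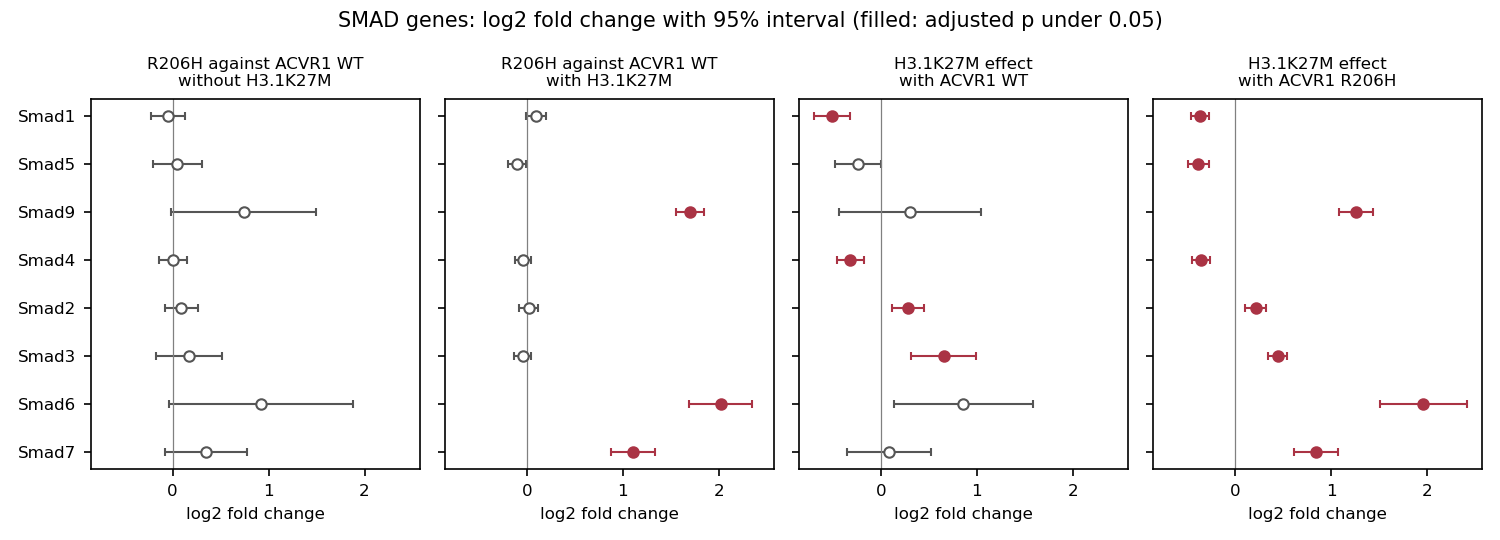
Points give the log2 fold change of the 8 SMAD genes in the 4 comparisons of 2 groups, with 95% intervals from the quasi-likelihood fit, and filled red points passed an adjusted p of 0.05. In R206H against WT with H3.1K27M, 3 members are filled, between 1.11 and 2.02, and in the H3.1K27M effect with R206H all 8 are, between -0.38 and 1.96.

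The comparison of R206H with WT asks what the mutant receptor does to its own pathway. With H3.1K27M, 3 of the 8 members were higher, Smad6, Smad9 and Smad7, and 0 were lower, where 20.3% of all 15672 genes tested were called, 11.4% higher and 8.95% lower. The 3 calls were kept under all 11 alternatives, with DESeq2 and without any single library. Without H3.1K27M, 0 of 8 members and 0 of 15066 genes (0%) passed edgeR, where 534 genes had an unadjusted p under 0.05 and DESeq2 called 26 genes. Of the members, 0 had an unadjusted p under 0.05 and DESeq2 called 0. Smad7 and Smad9 were the 2 members whose R206H samples all lay above all ACVR1 WT samples, as was true of 4.37% of the genes tested. Without replicate 1 of ACVR1 WT, the same test called 23.1% of genes and 2 members, Smad3 at 0.35 (adjusted p = 0.0117) and Smad6 at 1.30 (adjusted p = 0.0483), while Smad9 was at 0.47 (adjusted p = 0.0955) and Smad7 at 0.20 (adjusted p = 0.336).

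The comparison of H3.1K27M with its absence was made for each allele, between groups that also differed in Acvr1 reads, as given above. With ACVR1 WT, 4 of 8 members were called, Smad2 and Smad3 higher and Smad1 and Smad4 lower, where 23.0% of 15385 genes were called, 12.6% higher and 10.4% lower. Each of the 4 calls was lost without some single library. Smad2 and Smad3 kept theirs only when the library left out was replicate 1 of ACVR1 WT (adjusted p = 0.0028 and 3.45e-05). Smad4 lost its call without replicate 2 of ACVR1 WT (adjusted p = 0.0616) or any 1 of the 3 replicates of WT with H3.1K27M (0.0667 to 0.0734), and Smad1 without replicate 2 or 3 of the latter (0.0534 and 0.0506). Smad6 was called without replicate 1 of ACVR1 WT, at 1.23 (adjusted p = 0.00545). With R206H all 8 members were called, 5 higher and 3 lower, where 56.5% of 15482 genes were called, 29.1% higher and 27.4% lower, and the 8 calls were kept under all alternatives. The comparison shares its R206H with H3.1K27M samples with that of R206H against WT above, so that the rise of Smad6, Smad7 and Smad9 in both is partly the same measurement.

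Whether the R206H effect differed with H3.1K27M was tested as an interaction over all 12 samples. The log2 difference between the effects was 1.10 (SE 0.40, adjusted p = 0.570, edgeR) for Smad6, 0.96 (SE 0.33, adjusted p = 0.533) for Smad9 and 0.76 (SE 0.20, adjusted p = 0.364) for Smad7. None of the 8 passed, where 0.0712% of 15445 genes (11) did. The unadjusted p values of these 3 were 0.0187, 0.0139 and 0.00282, and DESeq2 called 0 of the 8. Without replicate 1 of ACVR1 WT, 26.6% of genes passed and so did 5 members: Smad9 at 1.24 (adjusted p = 0.000349), Smad7 at 0.91 (adjusted p = 0.00141), Smad3 at -0.38 (adjusted p = 0.00294), Smad1 at 0.21 (adjusted p = 0.0297) and Smad5 at -0.25 (adjusted p = 0.0305). Smad6 did not, at 0.73 (adjusted p = 0.210). Acvr1 reads, over all 12 samples, were at 1.03 in the interaction (SE 0.44, adjusted p = 0.642, edgeR).

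The genes that SMADs act on, or that act on SMADs, were counted in 5 lists of 64 genes. These lists were chosen with earlier results of these data known, so that the counts are a description and test no enrichment. Of 10 genes known as targets of BMP SMADs, 9 were higher and 0 lower in R206H with H3.1K27M against WT with H3.1K27M, where 11.4% of all genes were higher and 8.95% lower. Their median log2 fold change was 1.99, against 0.0014 over all genes tested. Id1 and Id3, inhibitors of basic helix-loop-helix factors, both rose by 2.99 on the log2 scale (adjusted p = 2.83e-10 for both, edgeR), from a mean of 13.3 to 106 CPM for Id1 and from 42.7 to 336 CPM for Id3. Id2 rose by 2.15 (adjusted p = 2.83e-10) and Id4 by 1.84 (adjusted p = 4.6e-08, edgeR, kept under 10 of 11 alternatives). Msx2 was the list's member that did not pass, at 0.48 (adjusted p = 0.255, edgeR). In the interaction, where 0.0712% of all genes were called, 2 of the 10 were, Id2 at 1.75 and Id3 at 2.31 (adjusted p = 0.0059 for both, edgeR).

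H3.1K27M with ACVR1 WT gave another picture for the same list, with 0 higher and 2 lower of 10, where 12.6% of all genes were higher and 10.4% lower. Id3 fell by 1.14 (adjusted p = 0.0113, edgeR), from a mean of 94.6 to 42.7 CPM, and Id2 by 0.64 (adjusted p = 0.0312, edgeR). Id3 lost its call without any 1 of the 3 replicates of WT with H3.1K27M, and Id2 without any of these or replicate 2 of ACVR1 WT, and in the fit with a replicate block (adjusted p = 0.0546). Id1 was at -0.21 (adjusted p = 0.581) and Id4 at -2.07 (adjusted p = 0.0508). With R206H, H3.1K27M raised 7 and lowered 1 of the 10, where 29.1% of all genes were higher and 27.4% lower. Those with the smallest adjusted p were Atoh8, a helix-loop-helix factor, which rose by 2.36 (adjusted p = 1.24e-08, edgeR), Id2, which rose by 1.11, and Id1, which rose by 1.58. Id3 rose by 1.18 and Id4 was at 0.12 (adjusted p = 0.435, edgeR), and Msx1 fell by 0.35 (adjusted p = 0.0336, edgeR).

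Of the activin and TGF-beta SMAD targets, 9 of 10 were tested in R206H against WT with H3.1K27M, and 5 were higher and 0 lower (median 0.31), where 11.4% of all genes were higher and 8.95% lower. Ccn2, a matricellular growth factor, rose by 0.94 from 3.96 to 7.54 CPM (adjusted p = 0.000956, edgeR). Ltbp2, a binding protein of the matrix, rose by 1.61, from 0.506 to 1.55 CPM, and Fn1, fibronectin, by 0.31. In 1 fit of all samples Ccn2 (adjusted p = 0.122) and Fn1 (0.542) lost their calls. With ACVR1 WT, H3.1K27M called 4 of 8 higher and 0 lower, where 12.6% of all genes were higher and 10.4% lower. Those with the smallest adjusted p were Col1a2 at 2.50 (adjusted p = 0.00256, edgeR), Ccn2 at 3.06 (adjusted p = 0.00483, edgeR) and Cdkn1a, an inhibitor of cyclin-dependent kinases, at 1.66 (adjusted p = 0.0248, edgeR). Ccn2 had 17, 7 and 5 counts in the ACVR1 WT replicates, and without replicate 1 of that group it was at 3.70 and Cdkn1a at 2.25. Cdkn1a lost its call without any other single library of this comparison. With R206H 6 of 9 were higher and 2 lower, where 29.1% of all genes were higher and 27.4% lower, and the smallest adjusted p belonged to Cdkn1a at 1.28, Ccn2 at 2.88 and Col1a2 at 2.76. Col1a1 and Col1a2 are collagen genes of fibroblasts. The pericyte and fibroblast sum given above also moved with the groups, but it includes Col1a1, so that this is partly the same measurement.

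Of the regulators of SMAD proteins, 3 lists were counted. Of 15 co-repressors and nuclear cofactors tested, 4 were higher and 2 lower in R206H against WT with H3.1K27M (median 0.06), where 11.4% of all genes were higher and 8.95% lower. Zfp423, a zinc finger partner of BMP SMADs, rose by 0.57 from 45.4 to 67.2 CPM, and Ski, which represses SMAD complexes, rose by 0.46 from 158 to 217 CPM, while Zeb1, a zinc finger repressor, fell by 0.36. Smurf1, a ubiquitin ligase for BMP receptor SMADs, was the only called gene of 13 ligases and deubiquitinases, at 0.15 (adjusted p = 0.0172, edgeR, kept under 7 of 11 alternatives), where 20.3% of all genes were called. Of 14 phosphatases, anchors and transport factors 3 were lower and 0 higher, where 8.95% of all genes were lower and 11.4% higher. In either direction the share was near the 20.3% called over all genes. The 3 lower genes were Pmepa1, a membrane protein that holds back Smad2 and Smad3, which fell by 0.72 from 74.8 to 45.2 CPM, its relative Ldlrad4, which fell by 0.40, and the import factor Ipo7, which fell by 0.13. Ipo7 lost its call in 1 fit of all samples (adjusted p = 0.485) and without replicate 1 (0.0593) or 3 (0.0807) of R206H with H3.1K27M or replicate 2 of WT with H3.1K27M (0.0691), and Zeb1 in the fit of all samples (0.148).

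Among all genes, H3.1K27M called 23.0% with ACVR1 WT and 56.5% with R206H. Of the 15 co-repressors and cofactors it called 1 higher and 1 lower with WT, a share below that over all genes, and 3 higher and 8 lower with R206H. Tob1, an antiproliferative protein that binds SMADs, rose with both alleles, by 0.54 (adjusted p = 0.0234, edgeR) and 0.43 (adjusted p = 5.42e-06, edgeR). Tgif1, a homeobox co-repressor, fell by 0.53 with WT, and with R206H Ski rose by 0.41 and Zeb1 fell by 0.39. Among the 13 ligases and deubiquitinases, 2 were higher and 3 lower with WT and 4 higher and 5 lower with R206H. Smurf1 rose with WT by 0.42 and with R206H by 0.52, Wwp1, another ligase, rose by 0.42 and 0.38, and Usp11, a deubiquitinase, fell by 0.35 and 0.28. Of the 14 phosphatases, anchors and transport factors, 0 were higher and 1 lower with WT and 1 higher and 4 lower with R206H, both shares below those over all genes. The calls with WT in these lists were lost in some alternatives, as Smurf1 kept its call in 10 of 11, Wwp1 and Tgif1 in 7, Tob1 and Ctdsp2 in 6 and Usp11 in 5. Ctdsp2, a phosphatase, fell by 0.46 with WT and by 0.29 with R206H, where Ldlrad4 fell by 0.37 and Pmepa1 by 0.29 (kept under 10 of 11 alternatives). Without H3.1K27M, R206H called 0 of 59 tested genes of the 5 lists with edgeR, where 8 had an unadjusted p under 0.05, against 0 and 534 of all 15066 genes. DESeq2 called 2 of them higher, of 26 genes in all, Atoh8 at 1.71 (adjusted p = 7.22e-05) and Id1 at 1.21 (adjusted p = 0.00767).

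**Figure D5:**
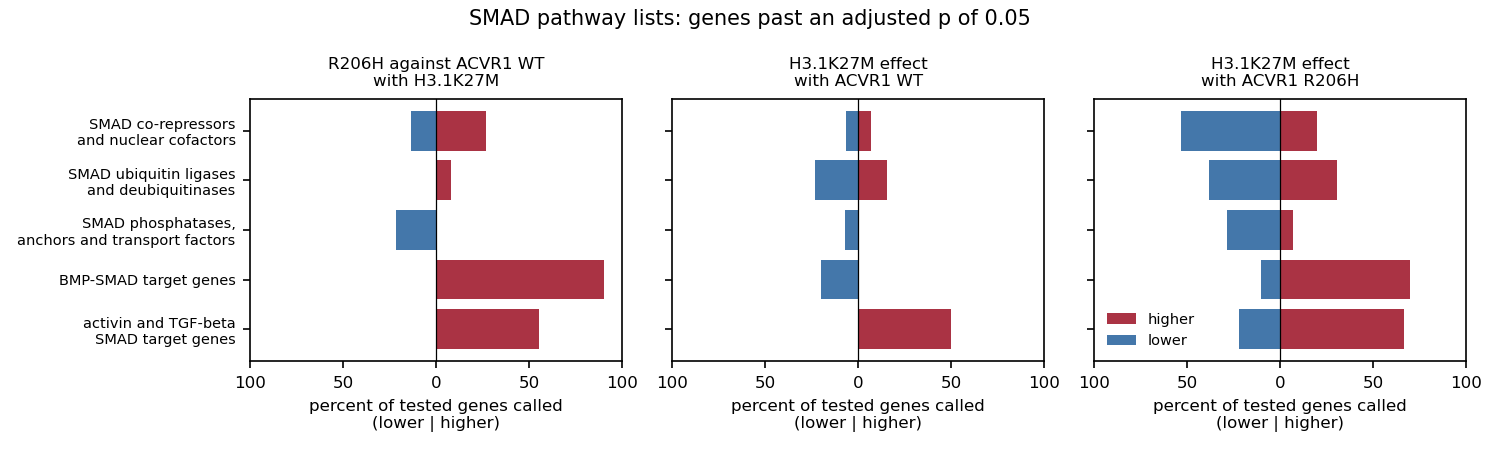
Bars give the percent of the tested genes of each of 5 SMAD pathway lists that passed an adjusted p of 0.05 (edgeR), with higher genes to the right in red and lower genes to the left in blue, in 3 comparisons. The lists were chosen with earlier results of these data known. In R206H against WT with H3.1K27M the BMP-SMAD targets had 9 higher and 0 lower of 10 (11.4% and 8.95% over all genes), and in the H3.1K27M effect with WT 0 higher and 2 lower (12.6% and 10.4%).

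Over the 12 samples 7 of the members fell into 2 patterns, described by Pearson's r of log2(CPM + 1) with no test, since the points share 4 groups. Smad6, Smad7 and Smad9 went together (r = 0.88 to 0.96). Smad1 and Smad4 went together (r = 0.95), as did Smad2 and Smad3 (r = 0.92), and each of the first pair ran against each of the second (r = -0.92 to -0.96). Smad5 belonged less clearly to either, with r = 0.70 to Smad1, 0.80 to Smad4 and -0.60 to -0.65 to the other 5 members. Among 15445 genes, those most like Smad7 were Nog (r = 0.99), which encodes the BMP antagonist noggin, Atoh8 (0.98) and Pdgfd (0.97), a growth factor. Pdgfd was also the closest to Smad9 (0.98), followed by Mmgt2 (0.97) and Hspb8 (0.97), and Smad6 was nearest to Pla2g3 (0.98), Ccdc3 (0.97) and Parvb (0.97).

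The same measure placed Smad1 nearest to Foxo4, Tspyl1 and Sh3kbp1 (each r = 0.99) and Smad4 to Tns2, Edil3 and 4930481A15Rik (each 0.99). Smad3 was near to Pvt1 and 4930452B06Rik (each 0.99), and Smad2 to Klf9, Pygm and Cacna1a (each 0.97). Smad5 was nearest to Sf3a1, Ddx6 and Bclaf1 (each 0.98). Nog and Atoh8 are on the list of BMP-SMAD targets. Nog, the antagonist, was at 11.7, 11.0 and 17.6 CPM in R206H with H3.1K27M and at most 3.80 CPM in any other sample, and rose by 2.96 with R206H in the presence of H3.1K27M (adjusted p = 1.05e-06, edgeR).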

How the data were processed

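Brainstem progenitors were profiled by RNAseq of total RNA. The authors aligned reads to mm10 with STAR (2.6.0b-1 in their notes), counted them without strand on Ensembl genes with HTSeq, leaving out reads with several matches, and deposited raw counts for every sample, without normalization or pooling. Symbols, exon lengths and positions came from GENCODE M21, which held 54495 of the 54532 identifiers. 0 columns of samples were left unused.

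Counts were tested with edgeR 4.0.16 (R 4.3.3) by the quasi-likelihood F test after TMM scaling, on genes whose normalized counts averaged 10 or more, with Benjamini-Hochberg adjustment over all genes and a threshold of 0.05. Each comparison used its 6 samples and the interaction all 12. DESeq2 1.42.0, the tool of the study, its size factors, no filter, a replicate block, 1 fit of all samples and leaving out each library were alternatives. The fits were checked first on simulated counts.

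The members and gene lists were chosen with earlier results of these data known. All 8 members and the Id genes are named, with the 3 genes of smallest adjusted p per list and comparison and the 3 genes most correlated with each member, 1 of which is not reported here. Nog, Atoh8, Msx1, Msx2, Zeb1 and Col1a1 are named beyond this rule where a count or marker list turned on them. Acvr1 is named because reads counted on it may include reads from the ACVR1 vectors. Groups came from the labels.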

Additional observations from a re-analysis of the deposited data

How the results depend on the processing

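Of 480 fold changes of SMAD genes under the alternatives, all 40 kept direction and call with DESeq2 and all 40 with median-of-ratios scaling. All samples in 1 fit called 11 genes for R206H without H3.1K27M (DESeq2 26), 440 for R206H with H3.1K27M and 6335 for H3.1K27M with WT, and it also called Smad5 and Smad6 in the last. DESeq2 called 97 genes and no filter 18 genes in the interaction, and no filter ended the call of Smad2 for H3.1K27M with WT (adjusted p = 0.0879).

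Samples with the same replicate number did not deviate together in every pair (r from -0.11 to 0.31), so the numbers were not taken as a pairing. The replicate block left 2023 genes and 2 SMAD genes (Smad1 and Smad3) for H3.1K27M with WT, and 2 genes in the interaction, and changed no other call of a SMAD gene.

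Leaving out 1 library at a time gave 0 to 3485 genes and 0 to 2 SMAD genes for R206H without H3.1K27M, 1915 to 2966 and 3 to 3 with it, 1037 to 8115 and 0 to 5 for H3.1K27M with WT, 7589 to 8350 and 8 to 8 with R206H, and 3 to 4112 and 0 to 5 in the interaction. The highest counts for R206H without H3.1K27M, for H3.1K27M with WT and in the interaction came without ACVR1 WT replicate 1. Only values near 0 that were not called turned direction. For R206H without H3.1K27M, Smad4 was at -0.0059 in 1 fit of all samples, and leaving out libraries moved it from -0.024 to 0.026 and Smad5 from -0.010 to 0.16. Likewise Smad2 ran from -0.0068 to 0.050 for R206H with H3.1K27M, and Smad7 from -0.066 to 0.19 for H3.1K27M with WT. The causes were not tested. Smad6 had 11 to 35 counts in 9 libraries, which limits its precision there, and 3 replicates a group limit that of every member.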
